A study of Mus musculus with 17 samples.

Results

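The 10 genes described here encode contractile proteins of smooth muscle and of the myofibroblast, together with close non-muscle relatives: the actin Acta2, the myosin subunits Myh11 and Myl9, the actin-binding proteins Tagln, Tagln2, Cnn1, Cnn2 and Cald1, and the smooth muscle proteins Smtn and Lmod1. They were set by gene name, with earlier results of these data known, and all 10 were found among the 31647 features of the count table. Transcripts were counted in the hearts of male C57BL/6J wild-type mice, aged 8 to 11 weeks per the study's methods, 5 days after surgery. In 9 mice a permanent tie had closed the left anterior descending artery, and the infarct zone (IZ) was taken, while in the 8 sham controls the artery was not tied and left ventricle was taken. The wider study asked how heart and kidney signal to each other after a myocardial infarction, and IZ against sham is the only comparison these 17 heart libraries allow. The ligation was not reperfused, and dissected IZ tissue was set against whole left ventricle, so the groups differed in tissue as well as in treatment. In such bulk samples, fewer cells of a type and less RNA per cell cannot be told apart.

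In the healthy heart, the smooth muscle contractile proteins are found mainly in the walls of coronary vessels, where sliding of Acta2 filaments along Myh11 myosin sets vessel tone. After an infarction, fibroblasts can become myofibroblasts, cells that lay down collagen and gain contractile filaments rich in Acta2, and Acta2 is for that reason read as a myofibroblast marker in scars. Myh11 and Smtn are known as markers of mature smooth muscle, whereas Cnn2 and Tagln2 are also made by blood cells, fibroblasts and other non-muscle cells. Many of these genes are targets of serum response factor (SRF), which binds the CArG box, and some of TEAD factors, which bind the MCAT element.

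Promoter windows of 300 bases, from 250 before the gene start to 50 after it, were available from RefSeq on GRCm38.p6 for 8 of the 10 genes, in 9 windows. Searched on both strands for exact matches, the CArG box was in 2 of these genes (Cnn2 and Myl9) and in 1.63% of all 32851 promoter windows. The MCAT element, CATTCC or GGAATG, was in 5 of them (Acta2, Cald1, Smtn, Lmod1 and Tagln2) and in 14.7% of all windows. The Cnn1 window held neither. Tagln and Myh11 had no entry. The windows of 3 genes that rose in the IZ are shown because they carry these letters at single places. Cnn2 lies at chr10:79988350-79988649 on the plus strand with the CArG box at bases 195 to 204, Myl9 at chr2:156775214-156775513 on the plus strand with the CArG box at bases 90 to 99, and Acta2 at chr19:34255324-34255623 on the minus strand with an MCAT element at bases 105 to 110. Capitals mark the match, and each sequence is written 5′ to 3′ on the strand of its gene.
Cnn2: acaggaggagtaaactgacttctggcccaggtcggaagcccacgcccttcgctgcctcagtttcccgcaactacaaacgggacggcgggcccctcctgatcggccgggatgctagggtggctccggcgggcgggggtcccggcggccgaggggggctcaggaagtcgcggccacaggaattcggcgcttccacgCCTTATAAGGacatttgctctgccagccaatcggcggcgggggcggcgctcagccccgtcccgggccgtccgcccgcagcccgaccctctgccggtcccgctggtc
Myl9: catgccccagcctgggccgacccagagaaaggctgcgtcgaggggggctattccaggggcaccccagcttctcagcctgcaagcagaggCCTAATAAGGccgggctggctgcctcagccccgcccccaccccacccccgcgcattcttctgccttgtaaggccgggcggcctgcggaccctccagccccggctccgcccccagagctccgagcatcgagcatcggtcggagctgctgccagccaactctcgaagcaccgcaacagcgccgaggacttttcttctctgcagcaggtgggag
Acta2: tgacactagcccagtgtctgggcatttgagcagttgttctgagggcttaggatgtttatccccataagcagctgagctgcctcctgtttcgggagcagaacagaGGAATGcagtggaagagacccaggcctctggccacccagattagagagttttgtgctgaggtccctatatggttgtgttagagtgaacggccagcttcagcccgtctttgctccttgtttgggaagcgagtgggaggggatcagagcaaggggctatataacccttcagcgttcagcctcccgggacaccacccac
A match is a description of the letters and not evidence that a factor binds there. The exact CArG search, which asked for only A or T between CC and GG, passed over ccctatatgg and ccttgtttgg in the Acta2 window. Each differs from the pattern by a letter, so a gene without a match may still hold an SRF element. Smtn held an MCAT element as Acta2 did, and the changes of these genes in the IZ had opposite signs.

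Library totals ran from 1820809 to 4257919 counts in sham and from 1237675 to 4738307 in the IZ. The 10 genes together drew 733 to 1561 counts per sham library and 3627 to 19954 per IZ library. Levels are given as CPM, counts per 1e6 of the library size after TMM (trimmed mean of M values) scaling, and errors are SD over n = 8 sham and n = 9 IZ mice. The cardiomyocyte marker list, which checks the tissue, summed to between 95140 and 118257 CPM in sham, and all 12 of its genes fell in the IZ. IZ replicate 1 stood apart from the other 8 IZ libraries. Its cardiomyocyte marker sum was 40403 CPM against 3682 to 9218 CPM in the others, and 19.5% of its counts were mitochondrially encoded against 4.22% to 6.78%. Below, values without that library are given where leaving it out changed the call of a named gene or the calls counted in a list, or moved a named value most.

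Of the 10 genes, 7 rose in the IZ, 2 fell (Myh11 and Smtn) and 1 did not pass the test (Lmod1), by the quasi-likelihood test of edgeR after Benjamini-Hochberg adjustment over 12301 tested features at a threshold of 0.05. The background was high, since 69.5% of all tested features passed, 36.3% as higher and 33.1% as lower in the IZ. The 7 that rose were Tagln, Cnn1, Tagln2, Acta2, Cnn2, Cald1 and Myl9, with every IZ library above every sham library, a separation that 16.6% of tested features showed in that direction. Of these, Cnn1 passed the filter on low counts only through the IZ, as described with that gene below. None of the 10 had every IZ library below every sham library, against 16.5% of tested features. The median log2 fold change of the 10 genes was 2.07, beside 0.05 over all tested features. Their summed level was 589 ± 108 CPM in sham and 2353 ± 451 CPM in the IZ, where IZ replicate 1 was lowest at 1314 CPM, still above the highest sham sum of 793 CPM. The counts of 7 higher and 2 lower were the same without IZ replicate 1. When libraries were scaled by their total counts alone, 8 were higher and 0 lower, as described with Myh11, Smtn and Lmod1 below.

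**Figure D1:**
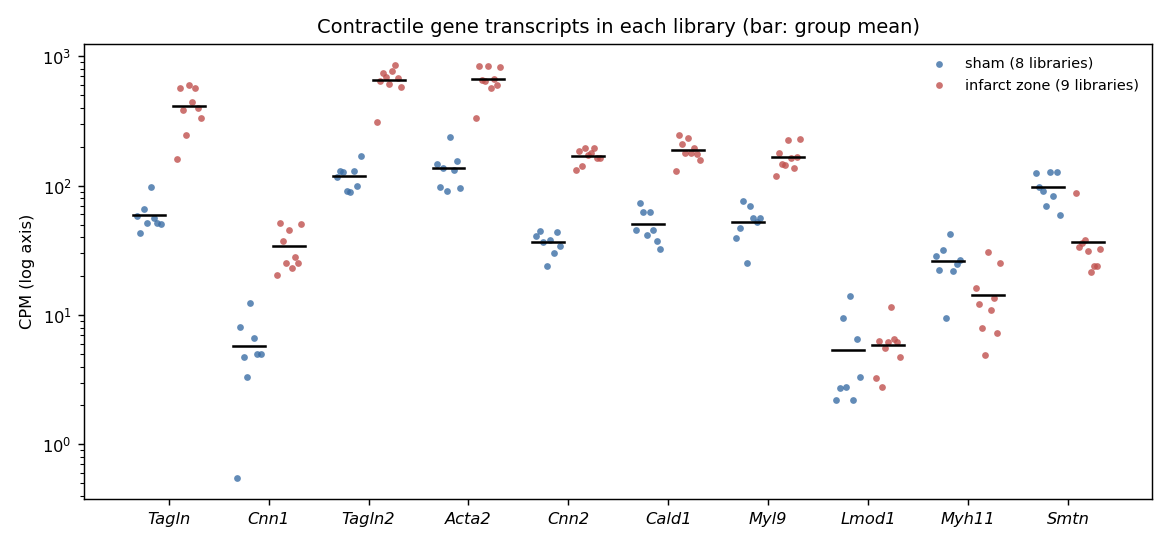
Level of the 10 genes in each library as CPM on a log axis, with 8 sham points and 9 IZ points per gene and a bar at each group mean. For the 7 genes from Tagln to Myl9 the IZ points lie wholly above the sham points, whereas those of Lmod1, Myh11 and Smtn overlap.

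Acta2 (ENSMUSG00000035783, chr19:34241090-34255590 on the minus strand, GRCm38) encodes the actin isoform of smooth muscle. By mean CPM it was the most abundant of the 10 in both groups, but it stood above Tagln2 in only 5 of 8 sham and 4 of 9 IZ libraries. Its level was 90.9 CPM in the lowest sham library, 134 CPM at the median and 238 CPM in the highest. The IZ libraries ran from 334 CPM through a median of 662 CPM to 849.6 CPM. All IZ libraries lay above all sham libraries, with the smallest gap at IZ replicate 1, the lowest of its group, and sham replicate 5, the highest of its own. Acta2 thus averaged 137 ± 47.8 CPM in sham and 666 ± 165 CPM in the IZ, a log2 fold change of 2.28 ± 0.21 (SE) with an adjusted p of 1.40e-09 (edgeR). Without IZ replicate 1 the log2 fold change was 2.34.

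Myosin is the partner of that actin. Myl9, the regulatory light chain whose phosphorylation starts contraction in smooth muscle (ENSMUSG00000067818, chr2:156775420-156781658, plus strand), ran from 25.1 CPM through 53.9 CPM to 76.8 CPM in sham. In the IZ it ran from 119.9 CPM through 164 CPM to 231 CPM. The groups did not overlap, and the log2 fold change of 1.68 ± 0.18 was the smallest among the 7 genes that rose (adjusted p = 2.15e-08, edgeR). Myh11, the smooth muscle myosin heavy chain (ENSMUSG00000018830, chr16:14194535-14291372, minus strand), did the opposite. It was at 9.48 CPM in the lowest sham library, 25.7 CPM at the median and 42.4 CPM in the highest, and at 4.95 CPM, 12.1 CPM and 30.6 CPM in the IZ. The groups overlapped: 3 of 9 IZ libraries (replicates 3, 4 and 8) lay below every sham library, and IZ replicate 5 lay above all sham libraries but replicates 3 and 5. Myh11 averaged 25.98 ± 9.35 CPM in sham and 14.3 ± 8.56 CPM in the IZ, a log2 fold change of −0.92 ± 0.30 with an adjusted p of 0.00982 by edgeR, but of 0.16 with an adjusted p of 0.601 when libraries were scaled by total counts alone. It rested on 17 to 82 counts per sham library and 14 to 87 per IZ library.

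The choice of scaling matters for these lower values because the groups differed in composition. TMM factors ran from 0.613 to 0.726 in sham and from 1.05 to 1.54 in the IZ. Under total counts alone the median log2 fold change of all tested features was 1.14 instead of 0.05, and 85.8% of calls were higher instead of 52.3%. The value of 0.16 for Myh11 under that scaling lay below that median, as did −0.37 for Smtn, and 1.19 for Lmod1 lay close to it.

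Tagln, or SM22, an actin-bundling protein of smooth muscle (ENSMUSG00000032085, chr9:45929619-45936058, minus strand), had the largest log2 fold change of the 10. It ran from 43.4 CPM through 53.6 CPM to 97.8 CPM in sham. It ran from 161 CPM through 401 CPM to 599.8 CPM in the IZ. No library of the groups overlapped, and the mean rose from 59.4 ± 16.9 CPM to 413 ± 152 CPM, a log2 fold change of 2.79 ± 0.24 (adjusted p = 4.72e-10, edgeR). Its relative Tagln2, widely made in non-muscle cells including lymphocytes and platelets (ENSMUSG00000026547, chr1:172500047-172507380, plus strand), ran from 90.1 CPM through 122 CPM to 171 CPM in sham and from 311 CPM through 682 CPM to 863 CPM in the IZ. All IZ libraries were above all sham libraries, and IZ replicate 1 was again the lowest. The log2 fold change of Tagln2 was 2.46 ± 0.18, with an adjusted p of 6.57e-11 by edgeR.

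The calponins bind actin and restrain myosin. Cnn1, the isoform of differentiated smooth muscle (ENSMUSG00000001349, chr9:22099216-22109630, plus strand), was among the least abundant of the 10 in sham, at 0.547 CPM in the lowest library (1 count, sham replicate 1), 5.00 CPM at the median and 12.4 CPM in the highest. In the IZ it ran from 20.3 CPM through 28.2 CPM to 51.6 CPM. The groups did not overlap, and the log2 fold change of 2.58 ± 0.30 (adjusted p = 8.45e-08, edgeR) came with the widest error among the 7 genes that rose. Cnn1 had 1 to 24 counts per sham library and 49 to 371 per IZ library. It thus passed the filter on low counts only through the IZ, which largely set its direction. Cnn2, the isoform of non-muscle cells (ENSMUSG00000004665, chr10:79988584-79996062, plus strand), was at 24.0 CPM, 37.1 CPM and 44.8 CPM in sham at the lowest, median and highest library, and at 131 CPM, 174 CPM and 194 CPM in the IZ. It varied least between mice among the 10, with a coefficient of variation of 19.0% in sham and 13.1% in the IZ. Its log2 fold change was 2.22 ± 0.13, with an adjusted p of 2.17e-12 by edgeR.

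Cald1, caldesmon, ties actin to myosin and tropomyosin and exists in a heavy form of smooth muscle and a light form of other cells (ENSMUSG00000029761, chr6:34598500-34775473, plus strand). It ran from 32.2 CPM through 45.5 CPM to 73.3 CPM in sham and from 130.1 CPM through 179 CPM to 247 CPM in the IZ. The groups did not overlap, and the log2 fold change was 1.93 ± 0.16 (adjusted p = 5.62e-10, edgeR). Reads from transcript 3′ ends do not separate isoforms that end alike, so the heavy and light forms of Cald1, and the isoforms of Myh11 and Smtn, were counted together.

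Smtn, smoothelin, is known as a marker of fully contractile smooth muscle (ENSMUSG00000020439, chr11:3517523-3540612, minus strand). It was at 59.4 CPM in the lowest sham library, 94.1 CPM at the median and 128 CPM in the highest. In the IZ it was at 21.4 CPM, 32.4 CPM and 88.4 CPM. Of the 9 IZ libraries, 8 lay below every sham library, and the exception was IZ replicate 1 at 88.4 CPM, the library with the highest cardiomyocyte marker sum of its group; the part of those cells in the Smtn level was not tested. Smtn averaged 97.8 ± 27.1 CPM in sham and 36.5 ± 20.3 CPM in the IZ, a log2 fold change of −1.41 ± 0.23 with an adjusted p of 9.31e-06 by edgeR, of −1.71 without IZ replicate 1, and of −0.37 with an adjusted p of 0.0612 under total counts alone.

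Lmod1, leiomodin 1, starts actin filaments in smooth muscle (ENSMUSG00000048096, chr1:135324807-135368065, plus strand). It was at 2.19 CPM, 3.06 CPM and 13.97 CPM in the lowest, median and highest sham library and at 2.80 CPM, 6.20 CPM and 11.6 CPM in the IZ. The IZ values lay wholly within the sham range. Lmod1 was counted 3 to 27 times per sham library and 9 to 45 times per IZ library, where 3 counts amount to at most 2.38 CPM. Its log2 fold change was 0.08 ± 0.36 with an adjusted p of 0.861 by edgeR, and the 95% interval from −0.64 to 0.79 is too wide to show that its level was the same. Under total counts alone the value was 1.19 with an adjusted p of 0.00379.

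**Figure D2:**
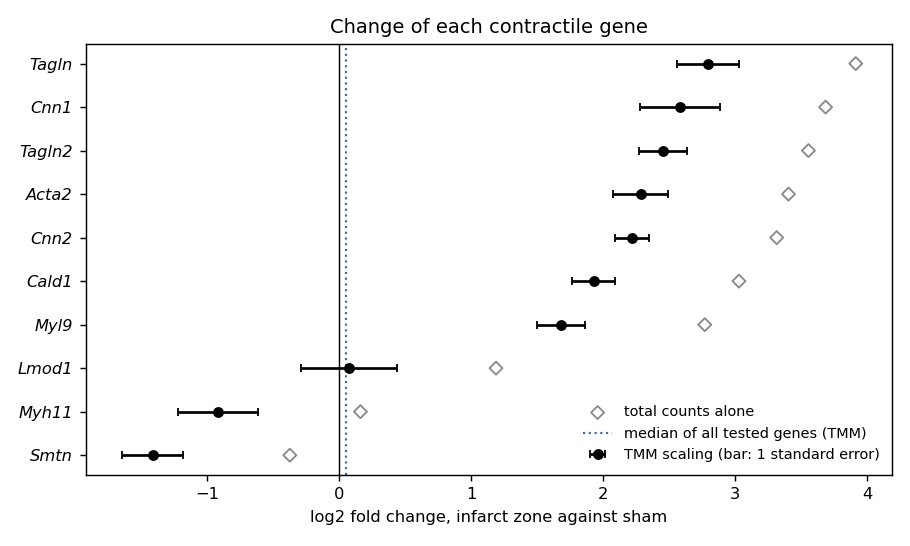
Log2 fold change of each of the 10 genes, IZ against sham, with bars of 1 standard error under TMM scaling, and open diamonds for scaling by total counts alone. The 7 genes that rose lie between 1.68 and 2.79, Lmod1 lies at 0.08, and Myh11 (−0.92) and Smtn (−1.41) lie below 0, while under total counts alone Myh11 moves to 0.16 and Smtn to −0.37.

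The order of levels within a library can be read because each molecule gives 1 tag at its 3′ end, so CPM does not grow with transcript length. In sham the order of mean CPM was Acta2, Tagln2, Smtn, Tagln, Myl9, Cald1, Cnn2, Myh11, Cnn1 and Lmod1. Smtn was above Tagln in 8 of 8 sham libraries, and Myh11 above Cnn1 in 8 of 8. The other 7 pairs of neighbours changed places between sham libraries, with the gene of higher mean above the next in 3 (Tagln over Myl9) to 7 (Cnn2 over Myh11) of 8. In the IZ the order was Acta2, Tagln2, Tagln, Cald1, Cnn2, Myl9, Smtn, Cnn1, Myh11 and Lmod1. Tagln2 stood above Tagln, Tagln above Cald1, Myl9 above Smtn, and Cnn1 above Myh11 in 9 of 9 IZ libraries. The other 5 pairs of neighbours changed places, with the gene of higher mean above the next in 2 (Smtn over Cnn1) to 7 (Myh11 over Lmod1) of 9. Smtn fell from the 3rd place to the 7th, and its share of the summed CPM of the 10 genes went from 16.6% ± 3.37 in sham to 1.83% ± 1.86 in the IZ. IZ replicate 1 had the highest IZ share of Smtn, 6.73%, and raised both the mean level and the mean share. The place of Smtn above Cnn1 in the IZ rested on that library. The share of Myh11 went from 4.28% ± 0.953 to 0.629% ± 0.386, and that of Tagln from 10.1% ± 1.69 to 17.05% ± 3.84.

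Ratios between 2 of these genes within a library do not depend on how libraries are scaled, so they show unequal change directly. Each was taken as log2 of counts with 0.5 added, and the group means were compared by an exact two-sided permutation test of the library labels, adjusted over 9 ratios. The Acta2/Myh11 ratio had a geometric mean of 5.32 in sham and 51.7 in the IZ. On the log2 scale it ran from 1.85 to 3.22 in sham and from 4.34 to 7.01 in the IZ, a difference of 3.28, higher in 9 of 9 IZ libraries than in any sham library (exact permutation p = 8.23e-05, adjusted 0.000148). A p of 8.23e-05 is the smallest this test can give. It was also reached by Tagln/Myh11 with a log2 difference of 3.70, by Cnn1/Myh11 with 3.71, by Cald1/Myh11 with 2.92 and by Myl9/Myh11 with 2.68, again with all 9 IZ libraries above all sham libraries. These 5 transcripts therefore gained on the smooth muscle myosin heavy chain within the same libraries.

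The remaining ratios moved less. Lmod1/Myh11 had a geometric mean of 0.188 in sham and 0.453 in the IZ, a log2 difference of 1.27, with 6 of 9 IZ libraries above every sham library (exact permutation p = 0.0127, adjusted 0.0190). Smtn/Myh11 differed by −0.52 on the log2 scale (exact permutation p = 0.194, adjusted 0.249), with 4 of 9 IZ libraries below all sham libraries and 1 above them. Between muscle and non-muscle relatives, Tagln2/Tagln differed by −0.29 (exact permutation p = 0.247, adjusted 0.278) and Cnn2/Cnn1 by −0.51 (exact permutation p = 0.306). For these last 3 ratios the spread between libraries was too large to say which gene of the pair changed more.

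**Figure D3:**
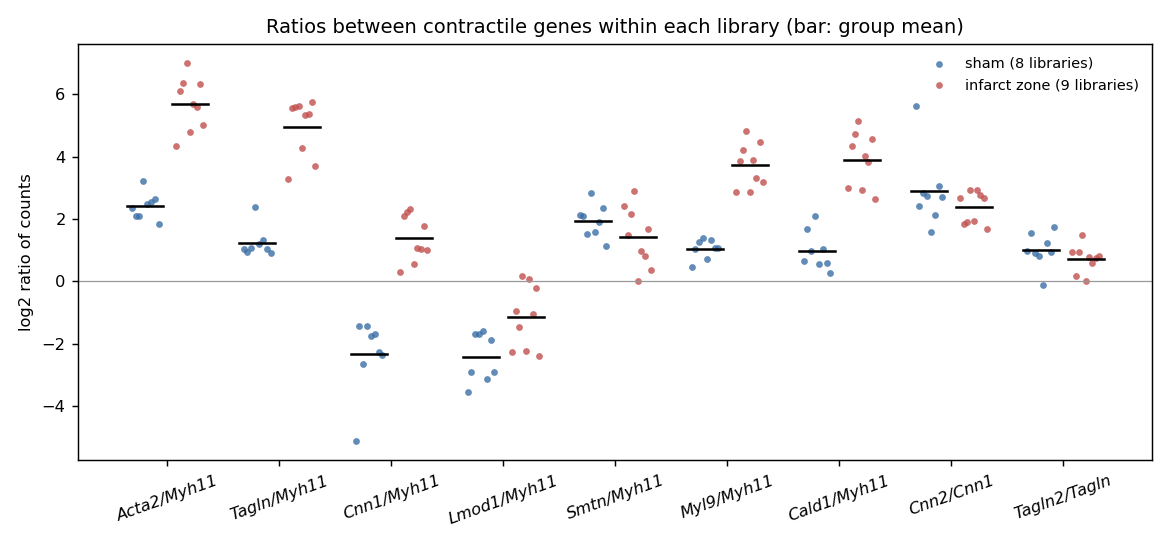
Log2 ratio of the counts of 2 genes within each library, for 9 ratios, with 8 sham points and 9 IZ points each and a bar at each group mean. The IZ points of Acta2, Tagln, Cnn1, Myl9 and Cald1 over Myh11 lie wholly above the sham points, and those of Smtn/Myh11, Cnn2/Cnn1 and Tagln2/Tagln overlap with them.

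Each of these genes belongs to a family whose other members are made by cardiomyocytes or by many cell types, and its share of the family's CPM shows its place in the tissue. Acta2 made up 1.19% ± 0.326 of actin CPM in sham, where the cardiac actin Actc1 made up 81.1% ± 4.02, and 6.65% ± 1.93 in the IZ, where the cytoskeletal Actb made up 67.4% ± 14.7 and Actc1 20.2% ± 14.7. The IZ range of the Acta2 share, 2.82% to 9.66%, lay above the sham range of 0.801% to 1.86%. Actg2, the other smooth muscle actin, went from 2.80 ± 1.24 CPM to 29.2 ± 13.2 CPM, a log2 fold change of 3.31 ± 0.31 (adjusted p = 2.80e-09, edgeR). It had 2 to 9 counts per sham library and 33 to 263 per IZ library. Actg2 thus passed the filter on low counts only through the IZ, which largely set its direction. Myh11 made up 13.8% ± 5.18 of the myosin II heavy chain CPM outside striated muscle in sham and 3.73% ± 2.01 in the IZ. In that family Myh9, the non-muscle heavy chain of most cells, went from 51.4% ± 6.07 to 85.4% ± 4.82 and rose by a log2 fold change of 1.76 ± 0.13 (adjusted p = 8.83e-11, edgeR), and Myh14 fell, by −3.15 ± 0.31 (adjusted p = 4.40e-09, edgeR).

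Among the leiomodins, Lmod1 went from 2.03% ± 1.64 to 17.1% ± 9.54 of the family's CPM while its own level gave no call. Lmod2 and Lmod3, the leiomodins of striated muscle, fell with log2 fold changes of −2.36 ± 0.34 and −3.65 ± 0.46, and of −2.97 and −4.82 without IZ replicate 1. Among the calponins, Cnn1 had 7.07% ± 3.76 in sham and 10.2% ± 2.62 in the IZ, Cnn2 45.9% ± 4.65 and 52.3% ± 6.42, and Cnn3 47.0% ± 4.04 and 37.4% ± 4.58. Cnn3 itself rose by a log2 fold change of 1.74 ± 0.14, so all 3 calponins were higher in the IZ. Tagln held 33.5% ± 8.89 of transgelin CPM in sham and 37.9% ± 6.97 in the IZ. Over the 14 tested paralogues of the 10 genes, 7 rose, 6 fell and 1 passed in neither direction, with a median log2 fold change of 0.27, and of 1.34 with 9 higher and 5 lower under total counts alone. Without IZ replicate 1, 7 fell.

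**Figure D4:**
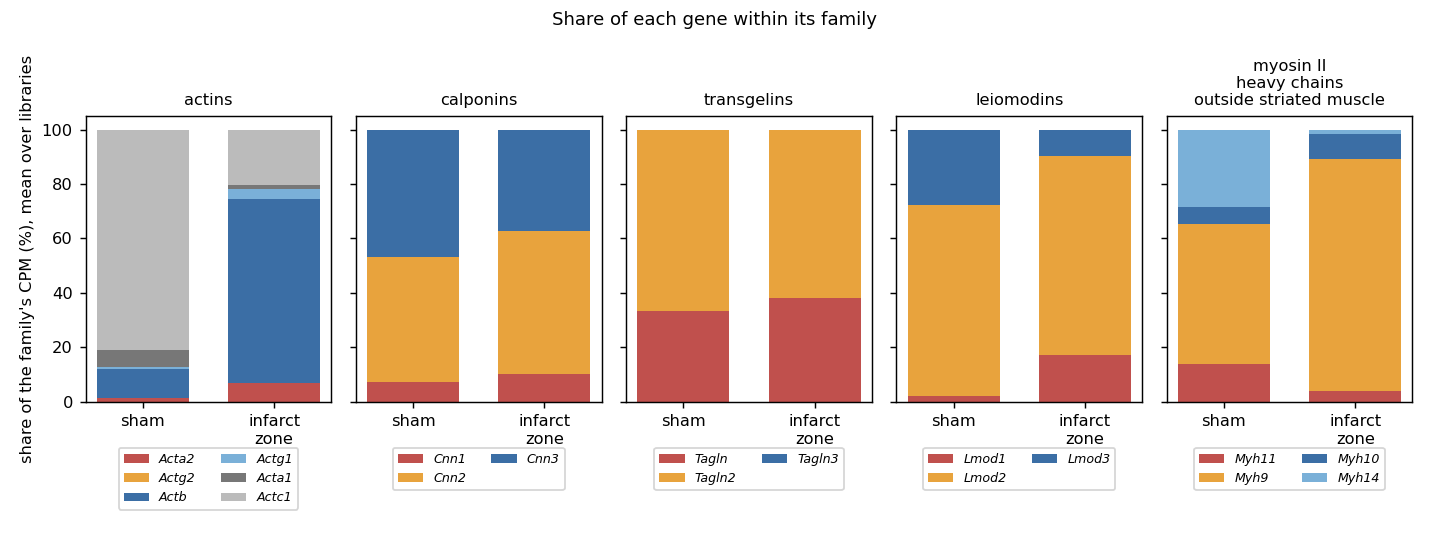
Mean share of each gene in the CPM of its family, in percent, in 8 sham and 9 IZ libraries, for actins, calponins, transgelins, leiomodins and the myosin II heavy chains outside striated muscle. Acta2 grows from 1.19% to 6.65% of the actins and Lmod1 from 2.03% to 17.1% of the leiomodins, whereas Myh11 shrinks from 13.8% to 3.73% of its family.

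Other contractile and cytoskeletal genes of smooth muscle moved mostly upward. Of 26 tested, 21 rose, 4 fell and 1 passed in neither direction, with a median log2 fold change of 1.52 beside 0.05 over all tested features. Actg2 was highest at 3.31, on the few sham counts given above. Actn1, an alpha-actinin of dense bodies and focal adhesions, rose by 2.89 ± 0.15 on the log2 scale (adjusted p = 4.72e-13, edgeR), and Tpm2, a tropomyosin of smooth and slow muscle, rose by 2.31 ± 0.17. Tpm1, which is also the main tropomyosin of the cardiomyocyte, fell with −2.29 ± 0.28, and Synpo2 and Synm fell with −1.29 ± 0.21 and −1.05 ± 0.30, but under total counts alone Synpo2 gave −0.25 with an adjusted p of 0.177 by edgeR and Synm gave 0.01, and neither was called. Desmin (Des), shared by cardiac and smooth muscle, gave −0.31 ± 0.20 with an adjusted p of 0.187 by edgeR. It was called lower without IZ replicate 1, at −0.40 with an adjusted p of 0.0340 by edgeR, so that 5 of the list fell, and called higher under total counts alone, at 0.74 with an adjusted p of 0.00159.

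Of 14 tested genes that control phosphorylation of the myosin light chain, 6 rose, 4 fell and 4 passed in neither direction, beside 36.3% and 33.1% of all tested features called higher and lower. Their median log2 fold change was 0.15. Under total counts alone 11 rose, 1 fell and the median was 1.24, and without IZ replicate 1, 7 rose and 4 fell. Mylk, the kinase of the light chain, rose by 0.60 ± 0.15 on the log2 scale (adjusted p = 0.00143, edgeR), far less than its substrate Myl9. Ppp1r14a, the inhibitor of the light chain phosphatase known as CPI-17, went from 5.00 ± 2.37 CPM to 9.83 ± 2.71 CPM, a log2 fold change of 0.93 ± 0.26. The highest was Calm2, a calmodulin gene, at 1.07 ± 0.11. The lowest was Ppp1r12b, a phosphatase subunit abundant in heart muscle, at −2.51 ± 0.21 (adjusted p = 3.89e-10, edgeR). The kinase Rock1 gave −0.56 ± 0.10, and 0.52 under total counts alone.

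Of SRF, its cofactors and its repressors, 16 were tested: 4 rose, 8 fell and 4 passed in neither direction, with a median log2 fold change of −0.49, whereas 10 rose, 3 fell and the median was 0.58 under total counts alone. Csrp2, a LIM protein of the SRF complex in smooth muscle, was highest, going from 40.4 ± 10.97 CPM to 354 ± 75.7 CPM with a log2 fold change of 3.13 ± 0.17 (adjusted p = 9.26e-13, edgeR). Mrtfa, the cofactor that enters the nucleus when actin polymerises, rose by 1.46 ± 0.22 on the log2 scale. Myocd, the cofactor of smooth and cardiac muscle, fell with −2.68 ± 0.41, from 11.9 ± 3.20 CPM to 2.14 ± 2.25 CPM (adjusted p = 3.71e-06, edgeR), and with −3.36 without IZ replicate 1. Fhl2, abundant in the heart, was lowest at −3.05 ± 0.33. Srf itself gave −0.81 ± 0.15 (adjusted p = 4.46e-05, edgeR), and 0.26 with an adjusted p of 0.0743 under total counts alone. Klf4, a repressor of smooth muscle genes, fell with −1.12 ± 0.21, but gave −0.05 with an adjusted p of 0.804 by edgeR under total counts alone.

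Of 17 tested identity genes of vascular smooth muscle and pericytes, 5 rose, 6 fell and 6 passed in neither direction, with a median log2 fold change of −0.16. Under total counts alone 10 rose, 3 fell and the median was 0.92, and without IZ replicate 1, 5 rose and 8 fell. The highest was Aoc3, a surface amine oxidase of smooth muscle, at 1.49 ± 0.18. The lowest was Pln at −3.57 ± 0.40, a gene that is also on the cardiomyocyte list and is far more abundant in those cells, and at −4.24 without IZ replicate 1. Rgs5, a marker of pericytes, went from 317 ± 65.8 CPM to 139 ± 58.7 CPM, a log2 fold change of −1.19 ± 0.20 (adjusted p = 1.74e-05, edgeR), but of −0.16 with an adjusted p of 0.377 under total counts alone. Abcc9 and Kcnj8, the subunits of the pericyte potassium channel, fell with −2.72 ± 0.21 and −1.80 ± 0.20, and Abcc9 is also made by cardiomyocytes. The list did not move as one, since Mcam, Rgs4 and Ndufa4l2 rose, by 1.43 ± 0.16, 0.76 ± 0.21 and 0.45 ± 0.15. Cspg4 at 0.06 ± 0.18 and Higd1b at −0.56 ± 0.26 were not called. Without IZ replicate 1, Higd1b was called lower, at −0.68 with an adjusted p of 0.0167 by edgeR. Pdgfrb, the receptor on mural cells and fibroblasts, rose by 0.96 ± 0.14 on the log2 scale (adjusted p = 1.62e-06, edgeR). Notch3, a receptor of arterial smooth muscle, gave 0.30 ± 0.21 with an adjusted p of 0.208 by edgeR, and was called higher under total counts alone at 1.35 with an adjusted p of 9.51e-07.

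Markers of some other cells moved with the 7 genes that rose and those of others did not, and their part in those changes was not tested. All 14 tested markers of activated fibroblasts and myofibroblasts, counted without Acta2, rose in the IZ. Their median log2 fold change was 3.92, with Lox, which cross-links collagen, highest at 4.64 ± 0.28 and the transcription factor Meox1 lowest at 1.97 ± 0.24. Cthrc1, Fap, Tnc, Ltbp2, Ddah1 and Thbs4 had as few as 9, 5, 2, 6, 7 and 6 counts in a sham library. These genes passed the filter on low counts only through the IZ, which in part set their direction and the count of 14. Together with Acta2 the list summed to between 1036 and 2344 CPM in sham and between 13936 and 25546 CPM in the IZ, lowest in IZ replicate 1. Of 11 resting fibroblast markers 5 rose and 3 fell, with a median of 0.04. Under total counts alone 8 rose, 2 fell and the median was 1.11, and without IZ replicate 1, 5 rose, 4 fell and the median was −0.05. Mfap5 was highest at 2.75 ± 0.16 and Scara5 lowest at −3.00 ± 0.34.

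Leukocyte markers rose in 11 of 11 tested, with a median log2 fold change of 3.19, from Csf1r at 2.31 ± 0.13 to Cd68 at 4.09 ± 0.21. Their sum ran from 357 to 531 CPM in sham and from 2023 to 5697 CPM in the IZ. Ptprc, Itgb2, Cd14 and S100a8 had as few as 3, 5, 6 and 1 counts in a sham library. These genes passed the filter on low counts only through the IZ, which in part set their direction and the count of 11. Leukocytes also make Cnn2 and Tagln2, as other cells do, and the part of leukocytes in the rise of these genes was not tested. The leukocyte list had no gene in the table at 0 in every library. Its lymphocyte genes Cd3e and Cd79a were too low to test. They averaged 0.096 and 0.048 CPM in sham and 0.698 and 0.461 CPM in the IZ, so the rise of the list does not cover lymphocyte markers. Of 7 platelet markers 2 were tested and both rose. Pf4, which macrophages also make, rose by 2.20 ± 0.30 on the log2 scale. Gp1bb had at most 3 counts in a sham library and 5 to 42 per IZ library. It passed the filter on low counts only through the IZ, which largely set its direction. The untested markers had low mean CPM in sham and IZ: Ppbp (2.36 and 3.18), Itga2b (2.01 and 2.84), Clec1b (1.19 and 1.41), Gp9 (0.319 and 0.557) and Treml1 (0.729 and 0.531). Without IZ replicate 1, Pf4 was the only platelet marker tested, and it rose. All 9 endothelial markers had values below 0 under TMM scaling and 4 passed the test as lower (5 without IZ replicate 1), with a median of −0.35, whereas under total counts alone 7 rose, 1 fell and the median was 0.71. Kdr was lowest at −1.70 ± 0.22, and Emcn was highest at −0.04 ± 0.15 with an adjusted p of 0.831 by edgeR, and at 1.04 under total counts alone. Cardiomyocyte markers had a median of −3.62, from Tnni3 at −4.19 ± 0.46 to Actc1 at −2.12 ± 0.34, and without IZ replicate 1 the median was −4.40 and Tnni3 gave −5.0. Of the 14 atrial, fat, skeletal muscle and mesothelial markers in the table, 4 were tested. The atrial Myl7 and Myl4 fell, with Myl7 lowest at −4.97 ± 0.68. Sham libraries were uneven in both, from 5.78 to 282 CPM for Myl7 and from 8.47 to 138 CPM for Myl4. In the IZ they ran from 0 to 8.68 CPM and from 2.27 to 13.6 CPM. The mesothelial Msln rose by 2.22 ± 0.64, with 0 to 9 counts per sham library and 5 to 316 per IZ library. The skeletal Tnnt3 rose, with at most 3 counts in a sham library and 4 to 41 per IZ library. Msln and Tnnt3 passed the filter only through the IZ, as Gp1bb did. Without IZ replicate 1, only Myl7 and Myl4 of the 4 were tested, and both fell.

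**Figure D5:**
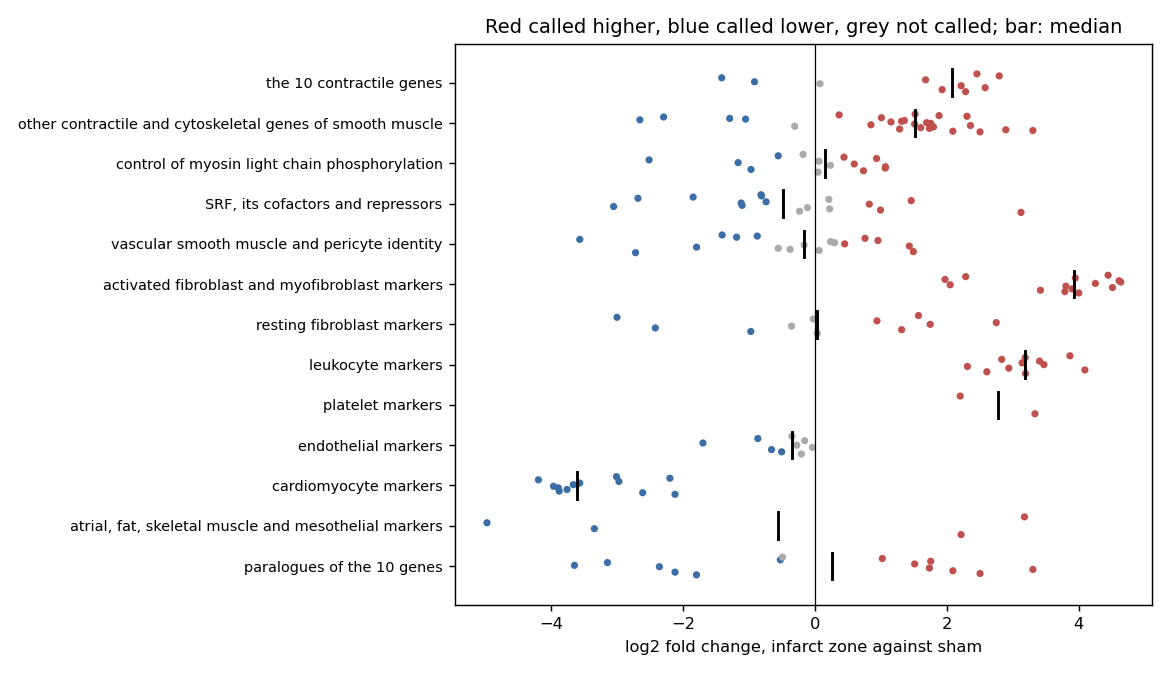
Log2 fold change, IZ against sham under TMM scaling, of the 10 genes and of every tested gene of 12 further lists, 1 point per gene, with a bar at each median. Points are red where called higher, blue where called lower and grey where not called. The 10 genes (median 2.07) and the other contractile genes (1.52) lie mostly to the right, the activated fibroblast markers (3.92) and leukocyte markers (3.19) lie wholly to the right, and the mural list lies around a median of −0.16, which turns to 0.92 under total counts alone.

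Whether these genes varied together between mice of 1 group was examined in 8 relations within each group, 16 in all, by Pearson's r and Spearman's rho of log2 CPM with exact permutation of the pairings. None passed after Benjamini-Hochberg adjustment over the 16. Tagln and Acta2 gave r = 0.75 and rho = 0.65 over the 9 IZ libraries (exact permutation p = 0.0238 and 0.0666, adjusted 0.0952 and 0.278). Without the 2 libraries farthest from the median of Tagln, r was 0.28, so the relation rested on those libraries. In sham the same pair gave r = 0.86 and rho = 0.60 over 8 libraries (exact permutation p = 0.00990 and 0.132, adjusted 0.0696 and 0.353), and 0.61 without the 2 farthest. Myl9 and Acta2 gave r = 0.77 and rho = 0.65 in the IZ (exact permutation p = 0.0103 and 0.0666, adjusted 0.0696 and 0.278), and 0.73 without the 2 farthest. Myh11 and Acta2 gave r = 0.21 and rho = 0.47 in the IZ (exact permutation p = 0.594 and 0.213, adjusted 0.730 and 0.425).

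Acta2 and Postn, a matrix protein of activated fibroblasts, gave r = 0.18 and rho = 0.13 over the 9 IZ libraries (exact permutation p = 0.639 and 0.744, adjusted 0.730 and 0.793), although both rose in every IZ library above every sham value. Cnn2 and the leukocyte gene Ptprc gave r = 0.80 and rho = 0.81 over the 8 sham libraries (exact permutation p = 0.0130 and 0.0218, adjusted 0.0696 and 0.278), and r = 0.18 and rho = 0.18 in the IZ (exact permutation p = 0.619 and 0.644, adjusted 0.730 and 0.760). Ptprc had 3 to 19 counts per sham library, so that relation rests on few counts. The remaining relations (Lmod1 and Myh11, Myh11 and Notch3, Tagln2 and Ptprc, and the sham values of Myl9, Myh11 and Postn with Acta2) had adjusted p for r of 0.159 to 0.999 by exact permutation. With 8 or 9 mice per group, a relation of moderate strength may go undetected.

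The genes whose levels followed Acta2 and Myh11 most closely from mouse to mouse were ranked by Pearson's r of log2 CPM over the 17 libraries after each group mean was subtracted, among the 9355 tested genes that averaged at least 10 CPM. This is a description without a test, and all points share their libraries. For Acta2 they were Slc35b1 (r = 0.84), Lmo4 (0.80), Adss (0.76), Surf4 (0.76) and Sgpl1 (0.76). For Myh11 they were Dtx3 (0.82), Ebf2 (0.75), Mtch1 (0.74), Fstl1 (0.71) and Gja4 (0.71). None of the 10 contractile genes was among them. Single libraries weighed heavily in these r. For Acta2, IZ replicate 1 had a log2 CPM of 8.38 against 9.15 to 9.73 in the other IZ libraries. For Myh11, sham replicate 4 had 3.30 against 4.49 to 5.42 in the other sham libraries. A ranking without these libraries is not given. The 5 that followed Acta2 and the 5 that followed Myh11 all rose in the IZ, beside 36.3% of all tested features called higher. Fstl1, a secreted glycoprotein of fibroblasts, had a log2 fold change of 3.38.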

How the data were processed

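Total RNA of 8 sham left ventricles and 9 infarct zones, each from a separate mouse, had been sequenced by massive analysis of cDNA ends (MACE), which reads transcript 3′ ends and uses molecular identifiers to remove PCR duplicates. Per the methods, the authors trimmed reads with Cutadapt 4.6, mapped them to mm10, quantified transcripts with HTSeq and tested with DESeq2 1.38. The processing notes of the labels also name bcl2fastq and Bowtie2. The annotation release and the treatment of multi-mapping reads are not given in the sources used here. The deposited values are raw counts per gene, without normalization. Of 31647 features, 31521 were matched to GRCm38 and 35 were merged groups of overlapping genes. No other gene matched the last 500 bases of the 10 genes at 95% identity over at least 100 bases (BLAST 2.17.0). Strand was not stated, and Tagln, Cald1, Smtn and Lmod1 overlap genes on the other strand. Itgam and Bmp10 were not analysed here.

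Counts went into edgeR 4.0.16 (R 4.3.3) with filterByExpr (minimum count 10), TMM scaling and a two-sided quasi-likelihood F-test over all 17 libraries without covariates, with Benjamini-Hochberg adjustment over 12301 features and a threshold of 0.05. The test of the study, DESeq2 (here 1.42.0), was an alternative. Standard errors came from the F statistic, and log2 CPM used a prior count of 1. Totals of 1237675 to 4738307 counts set the precision, and a floor of 3 counts covers counting error only. On simulated data with 11508 genes, 179 of them changed by 1 on the log2 scale, 79.3% of the changed genes were called and 2.07% of calls were unchanged genes. That simulation changed few genes, drawn equally up and down, so it did not test scaling between groups that differ in composition as these do. Its rates need not hold for these data. Other steps used Python 3.11.15, NumPy 2.4.6, pandas 2.3.3, SciPy 1.17.1 and Matplotlib 3.10.9.

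The 10 genes and all gene lists were chosen with earlier results of these data known, so counts over them are descriptions. Named were the 10 genes, the highest and lowest gene of each list, genes of a ratio or relation, and the 5 genes most like Acta2 and Myh11. Other genes of the families and lists were named after their values were seen. For 1 gene this rule selects, no value is reported here. As alternatives, TMM was replaced by upper quartile scaling, size factors of DESeq2 or total counts alone, the test by the Wald test of DESeq2, and the filter by none or a mean of at least 50 counts; mitochondrially encoded features were removed, libraries thinned to the smallest total, replicate numbers used as a block, and libraries left out in turn. For ratios they were a pseudocount of 5, medians, thinning, the block and leaving out each library, and for relations a prior count of 5, CPM by total counts or by size factors, and leaving out 2 libraries. The labels give no batch or date.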

Additional observations from a re-analysis of the deposited data

Results flagged for a closer look

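The groups of the 10 genes and 9 ratios, 38 in all, were searched for a library far from the others by Dixon's criterion, which chance meets in about 1 of 20 groups, and 8 met it. In the infarct zone (IZ), replicate 1 had a log2 CPM of 8.38 for Acta2 against 9.15 to 9.73 in the other 8 libraries, of 8.28 for Tagln2 against 9.19 to 9.75, and of 6.47 for Smtn against 4.45 to 5.25. This is the library with 19.5% mitochondrially encoded counts and a cardiomyocyte marker sum of 40403 CPM, and the part of those measures in the 3 values was not tested. Sham replicate 4 had a log2 CPM of 3.30 for Myh11 (17 counts) against 4.49 to 5.42 in the other sham libraries, and a Tagln/Myh11 log2 ratio of 2.40 against 0.92 to 1.33.

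Sham replicate 1 held 1 count of Cnn1, a log2 CPM of −0.13 against 1.89 to 3.68 in the other sham libraries. That count also set its log2 ratios of −5.13 for Cnn1/Myh11, against −2.64 to −1.42, and of 5.63 for Cnn2/Cnn1, against 1.58 to 3.07. No call of the 10 genes or of the 9 ratios changed when any of these 3 libraries was left out.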

How the results depend on the processing

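The 7 genes that rose and the ratios kept their direction, where called, and their side of the threshold under all alternatives run, and no relation passed under any. Scaling by total counts alone moved the lower calls: 0 genes were called lower and 8 higher, Myh11 turned to 0.16 (adjusted p = 0.601, edgeR), Smtn gave −0.37 (0.0612) and Lmod1 rose by 1.19 (0.00379). That scaling shifts the median log2 fold change of all features by 1.09, and 85.8% of its calls were higher, against 52.3%. With a minimum mean of 50 counts, 1 gene was called lower, because Myh11 and Lmod1 were not tested there. Over the 17 fits that each left out 1 library, the counts were 7 and 2 throughout, and log2 fold changes ran from −1.09 to −0.76 for Myh11 (largest adjusted p = 0.0305), from −1.71 to −1.32 for Smtn and from −0.09 to 0.46 for Lmod1. Same-numbered sham and IZ libraries deviated together with r from −0.22 to 0.13, over 0.1 in 1 of 8 pairs, so they share only a number. With the replicate block the counts were again 7 and 2, with −1.08 for Myh11, −1.47 for Smtn and 0.25 for Lmod1, and no call changed. Over all alternatives the adjusted p ran from 0.000121 to 0.601 for Myh11, from 1.51e-10 to 0.0612 for Smtn and from 0.00379 to 0.9802 for Lmod1. Depth limits Lmod1 and Cnn1 most, with as few as 3 and 1 counts in a sham library.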
